A study of Mus musculus with 6 samples.

Results

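The SWI/SNF (BAF) complexes are chromatin remodellers, and the mRNA levels of 9 genes for their subunits were examined in mouse embryonic stem (ES) cells with and without expression of Sim2. The 9 genes are Arid1a, Arid1b, Smarca2, Smarca4, Smarcb1, Smarcc1, Smarcc2, Smarce1 and Actl6a. They were chosen by symbol as BAF subunits that do not lie on chromosome 15, and each of the 9 was found once among the 22602 genes of the table. SIM2 is a bHLH-PAS transcription factor that pairs with ARNT. The Sim2 group consisted of clones A6, B8 and C4, 1 culture each, in which a tetracycline-regulated CMV promoter at ROSA26 drives a mouse Sim2 transgene with a Flag tag. The EB3 group consisted of 3 cultures, named EB3-0, EB3-1 and EB3-2, of the parental EBRTcH3 line, which holds the regulatable transactivator but not the Sim2 transgene. All 6 cultures were kept in medium without tetracycline for 26 h, so both groups share the withdrawal and differ in the transgene and in the clonal step, which cannot be told apart.

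A BAF complex uses the energy of ATP to slide or evict nucleosomes. Its motor is 1 of a pair of exclusive ATPases encoded by Smarca4 (also called Brg1) and Smarca2 (Brm). Arid1a and Arid1b encode large subunits that exclude each other and define the canonical BAF form. Smarcc1 and Smarcc2 encode related scaffold proteins, and Smarcb1, Smarce1 and Actl6a encode a core subunit, an HMG-box subunit and an actin-related subunit. ES cells are known for a BAF form rich in the products of Smarca4, Arid1a and Smarcc1 and poor in those of Smarca2 and Smarcc2. Loss of 1 copy of ARID1B in people causes a developmental disorder with intellectual disability.

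Of the 9 genes, Arid1b and Smarcc1 were assigned to regions in the study's list of sites bound by SIM2. The study assigned a region between genes or in an intron to the closest gene on either side. In the same list stood 2 of 21 genes for other SWI/SNF subunits and 2 of 16 for ATPases of other remodellers. The share over all genes was not computed. These 3 regions are shown because they are the listed sites that neighbour members. Each has 100 bases and is printed from the plus strand of build mm9, with the letters CATTGT, the core bound by SOX factors, in capitals.
Upstream of Arid1b, chr17:4948531-4948630: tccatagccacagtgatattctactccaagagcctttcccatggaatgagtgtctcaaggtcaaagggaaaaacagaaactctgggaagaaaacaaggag
Downstream of Arid1b, chr17:5405187-5405286: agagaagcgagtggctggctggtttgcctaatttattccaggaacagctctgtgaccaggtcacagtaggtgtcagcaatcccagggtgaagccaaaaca
In Smarcc1, chr9:110108696-110108795: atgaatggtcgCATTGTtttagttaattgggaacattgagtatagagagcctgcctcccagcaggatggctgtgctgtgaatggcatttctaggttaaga

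The upstream region lies 46.5 kb before the listed start of Arid1b. Besides assigning it by distance, the study linked this region to the Arid1b promoter through published RNA polymerase II contact data (ChIA-PET) of mouse ES cells. The downstream region lies 57.6 kb after its listed end and 410 kb from its listed start. Neither overlaps a gene of the GENCODE annotation of mm9. The third region lies 74.2 kb inside Smarcc1, in intron 24 of 27. 3 motifs were searched on both strands: ACGTG, the core of the SIM-ARNT site, ATGCAAAT, the octamer bound by POU factors, and CATTGT. None of the 3 regions held ACGTG or ATGCAAAT, and the region in Smarcc1 held CATTGT at 1 place. Over all 1229 regions of the list, 9.68% held ACGTG, 5.21% held ATGCAAAT and 11.1% held CATTGT. The window at the listed start of Arid1b is shown because the upstream region faces that start. It is the RefSeq window from 250 bases before to 50 after the start, in build GRCm38.p6, on the plus strand of chromosome 17 from 4994824 to 4995123.
Arid1b promoter: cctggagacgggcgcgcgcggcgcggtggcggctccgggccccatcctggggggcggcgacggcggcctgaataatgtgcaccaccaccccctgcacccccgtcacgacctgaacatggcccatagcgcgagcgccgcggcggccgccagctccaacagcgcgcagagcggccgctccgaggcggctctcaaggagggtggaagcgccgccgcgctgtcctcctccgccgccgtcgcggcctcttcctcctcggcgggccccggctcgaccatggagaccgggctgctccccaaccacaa

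This window has a GC content of 75.3% and does not hold ACGTG on either strand, a motif present in 19.6% of 32851 promoter windows of the same length. An ATG before the listed start opens a reading frame that runs without a stop codon to the end of the window. The window may therefore hold coding sequence rather than the start of transcription in these cells, which was not tested. A window was found for 8 of the 9 members, all but Smarce1. Among those 8, ACGTG was found in that of Smarcb1, at 1 place: gcgCACGTtagcgtcag, where capitals mark the motif read on the other strand. These matches are descriptions of the letters and say nothing of binding.

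Depth was 25095861 to 28269340 reads a library, and a single read on a 2 kb cDNA amounts to 0.0177 to 0.0199 RPKM (a read count divided by cDNA length in kb and by library size in units of 1000000 reads). Sim2 itself was at 168 to 212 RPKM in the clones and at 0.0917 to 0.130 RPKM in EB3, as the labels require. The 5 ES cell markers (Pou5f1, Sox2, Nanog, Klf4 and Esrrb) summed to 2492 to 2686 RPKM in the clones and 2553 to 2876 RPKM in EB3. Most of this sum was Pou5f1. Esrrb was higher in all clones (299 to 450 against 276 to 284 RPKM), and the others overlapped between groups. The 5 trophectoderm markers summed to 2.70 to 4.75 RPKM in the clones and 2.13 to 2.34 in EB3, and the 5 primitive endoderm markers to 3.34 to 4.21 and 2.10 to 2.61 RPKM, so both low sums were higher in all clones. Krt7, the highest trophectoderm marker, was at 2.52 RPKM in B8 and overlapped between groups, as did Eomes. Cdx2 and Hand1 were higher in all clones, and Elf5, with at most 7 reads a library, was lower in all clones. Sox7, the highest primitive endoderm marker, and Gata6 overlapped between groups, while Gata4, Sox17 and Pdgfra were higher in all clones. The 4 mesoderm markers summed to at most 2.85 RPKM. The neural markers, with 4 of 5 in the table, summed to 85.05 to 106 RPKM in the clones and 125 to 143 in EB3, most of it Tubb3, which was lower in all clones (70.4 to 95.004 against 113 to 133 RPKM). Nes was higher in all clones (8.30 to 9.15 against 5.75 to 6.03 RPKM), and Pax6 and Sox1 overlapped between groups. The 4 fibroblast markers summed to 10.01 to 13.8 RPKM, most of it Thy1, and Postn was at 0 in all libraries. Their part in the results on the members was not tested. EB3-0 stood apart from EB3-1 and EB3-2 in a way that follows cDNA length, and values without it are given beside the results that they move.

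In EB3 the members spanned more than 2 orders of magnitude. Smarcb1 was highest with 100.0 ± 16.8 RPKM (SD, n = 3), followed by Actl6a with 77.7 ± 0.345, Arid1a with 71.4 ± 17.7, Smarcc1 with 57.0 ± 2.52 and Smarca4 with 50.1 ± 1.44 RPKM. Smarce1 was at 21.5 ± 0.424 RPKM. 3 members were far lower: Smarcc2 at 4.76 ± 0.203, Arid1b at 4.17 ± 0.296 and Smarca2 at 0.322 ± 0.0676 RPKM. Smarcb1 exceeded 92.8% of the tested genes in EB3, and Arid1b exceeded 23.1% of them. The order of neighbours did not hold beyond the spread for Actl6a and Arid1a, whose ranges overlapped in both groups, and for Arid1a and Smarcc1 in EB3. Actl6a was above Arid1a in 1 of the 6 libraries, EB3-0, so the order of their means rested on that culture. Smarcc2 and Arid1b changed places: Smarcc2 was higher in each EB3 culture and Arid1b in each clone, though the lowest clone value of Arid1b, 5.95 RPKM, was close to the highest of Smarcc2, 5.87. All other neighbours kept their order with ranges apart in both groups. Thus the member of each paralogous pair that ES cells are known for was the higher one in all 6 libraries. The precision of these values follows the reads: Arid1b had 1185 to 2135 reads, whereas Smarca2 had 43 to 98. If each fragment gave a pair of reads, counting error alone is 3.06% to 4.11% of the level of Arid1b and 14.3% to 21.6% of that of Smarca2.

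**Figure D1:**
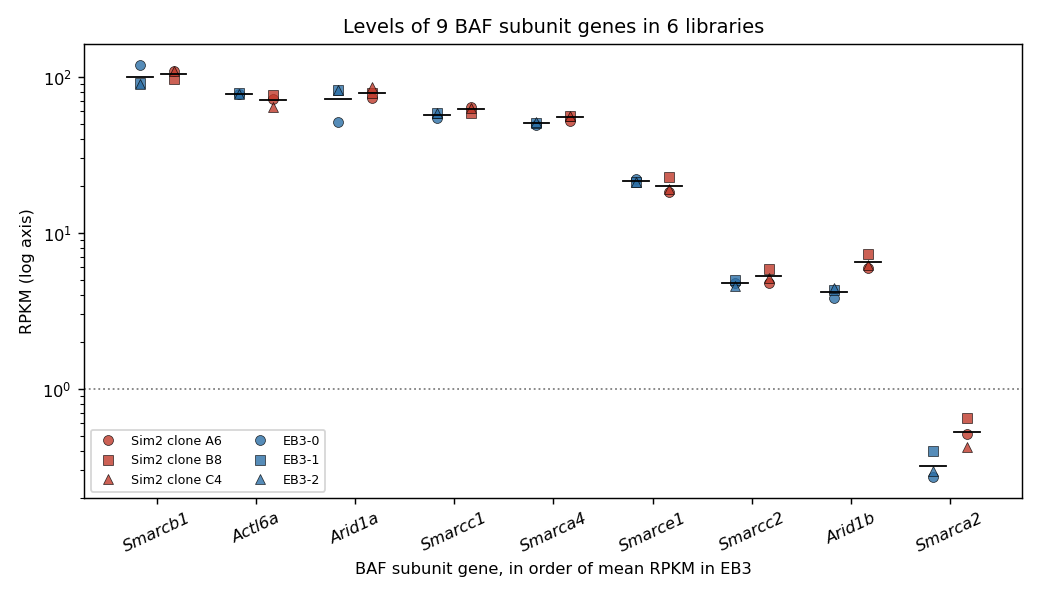
RPKM of the 9 members on a log axis, in order of their mean in EB3, with 1 point for each library, blue for EB3 and red for the Sim2 clones. Black bars are group means and the dotted line marks 1 RPKM, the mean needed for a test. Arid1b shows the widest gap between groups among the members above the line, with the clones between 5.95 and 7.32 and EB3 between 3.83 and 4.39 RPKM.

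Arid1b (chromosome 17, 4995074 to 5347656, plus strand, mm9) reached levels of 5.95, 7.32 and 6.18 RPKM in clones A6, B8 and C4. Its levels were 3.83, 4.28 and 4.39 RPKM in EB3-0, EB3-1 and EB3-2. The lowest clone was above the highest EB3 culture, and B8 was the highest of all. The ratio of the group means was 1.56, from 6.48 ± 0.730 to 4.17 ± 0.296 RPKM (SD, n = 3 each). This is a log2 fold change of 0.58 ± 0.14 (SE), with a 95% confidence interval of 0.26 to 0.89. The unadjusted p was 0.00277, and the p adjusted over all 11595 tested genes was 0.0982 (limma, Benjamini-Hochberg), so that Arid1b did not pass the threshold of 0.05. By exact permutation p was 0.1, the lower limit of a design with 3 libraries a group. Both p-values rest on transformed RPKM values, and a test on read counts was not run here. The study had singled out Arid1b on these same libraries, so its difference is not independent evidence. In bulk RNA, more cells with the transcript and more transcript per cell cannot be told apart.

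Arid1a (chromosome 4, 133234923 to 133309526, minus strand), the paralog that takes the same place in the complex, was at 72.5, 78.1 and 85.7 RPKM in clones A6, B8 and C4. In EB3-0, EB3-1 and EB3-2 it was at 50.9, 81.5 and 81.7 RPKM. EB3-0 was the low library, and the other EB3 cultures lay within the range of the clones. The log2 fold change was 0.17 ± 0.18 (SE; adjusted p = 0.670, limma), and without EB3-0 it turned to -0.05.

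Smarca4 (chromosome 9, 21420613 to 21508674, plus strand), the main ATPase, was at 52.3, 55.8 and 56.1 RPKM in A6, B8 and C4 and at 48.6, 50.2 and 51.5 RPKM in EB3-0, EB3-1 and EB3-2. All clones were above all EB3 cultures, but by little: the log2 fold change was 0.13 ± 0.08 (SE; adjusted p = 0.461, limma), with a 95% confidence interval of -0.06 to 0.31. Smarca2 (chromosome 19, 26679650 to 26852811, plus strand), the alternative ATPase, was at 0.514, 0.654 and 0.426 RPKM in A6, B8 and C4, against 0.271, 0.399 and 0.297 RPKM in EB3-0, EB3-1 and EB3-2. The clones were above EB3 here as well, with C4 close to EB3-1. Its mean of 0.427 RPKM was under the minimum of 1 RPKM, so Smarca2 was not among the tested genes. With no such minimum its log2 fold change was 0.32 ± 0.12 (SE; adjusted p = 0.272, limma), on a scale that understates the change of low genes, and the ratio of the group means was 1.65.

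The scaffold gene Smarcc1 (chromosome 9, 110034528 to 110142682, plus strand) was at 64.0, 58.7 and 62.6 RPKM in A6, B8 and C4, and at 54.1, 58.6 and 58.4 RPKM in EB3-0, EB3-1 and EB3-2. The clones were above EB3, although B8 exceeded EB3-1 by less than 1 RPKM. The log2 fold change was 0.11 ± 0.08 (SE; adjusted p = 0.522, limma). Its paralog Smarcc2 (chromosome 10, 127896292 to 127927230, plus strand) was at 4.75, 5.87 and 5.15 RPKM in A6, B8 and C4 and at 4.77, 4.96 and 4.56 RPKM in EB3-0, EB3-1 and EB3-2. The groups overlapped, and the log2 fold change was 0.12 ± 0.13 (SE; adjusted p = 0.675, limma).

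Smarcb1 (chromosome 10, 75359514 to 75384359, minus strand), the core subunit lost in rhabdoid tumours, was at 108, 97.1 and 109 RPKM in A6, B8 and C4. It was at 119 RPKM in EB3-0 but 91.0 in EB3-1 and 89.6 in EB3-2, so the EB3 cultures lay on both sides of the clones. The log2 fold change was 0.08 ± 0.12 (SE; adjusted p = 0.794, limma). It was 0.21 (adjusted p = 0.125) without EB3-0 and ranged down to 0.0030 without EB3-2. Smarce1 (chromosome 11, 99070362 to 99092331, minus strand) was at 18.3, 22.6 and 19.1 RPKM in the clones and at 22.0, 21.2 and 21.2 RPKM in EB3, which gave -0.10 ± 0.11 (SE; adjusted p = 0.661, limma). Actl6a (chromosome 3, 32607468 to 32625893, plus strand), which is also a subunit of other chromatin complexes, was at 71.9, 76.5 and 63.7 RPKM in the clones and at 77.4, 78.1 and 77.7 RPKM in EB3. It was the 1 member with all clones below all EB3 cultures, with a log2 fold change of -0.14 ± 0.09 (SE; adjusted p = 0.474, limma).

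Some of these values could hold reads of copies elsewhere in the genome, since how the authors treated reads with several positions was not stated. 4 of the 9 transcripts aligned to another place over at least 200 bases at 85% identity or more. Smarce1 had 6 such places, among them 1360 bases at 98.5% on chromosome 5 and 1155 bases at 97.9% on chromosome 8, and its level is uncertain. For Actl6a the longest copy had 1764 bases at 88.7%, for Arid1a 1504 bases at 88.0%, and for Smarca2 234 bases at 96.2%. Arid1b, Smarca4, Smarcb1, Smarcc1 and Smarcc2 had none. None of the 9 listed gene spans overlapped another listed gene.

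Of the 8 members tested, 0 were called at an adjusted p under 0.05, against 81 of 11595 tested genes (0.699%) in the same comparison. At an unadjusted p under 0.05 it was 1 member, Arid1b, against 17.8% of all tested genes. All clones were above all EB3 cultures for 3 tested members (Arid1b, Smarca4 and Smarcc1), a pattern seen in 12.7% of tested genes, and below them for 1, against 13.4%. 6 members had a positive and 2 a negative log2 fold change, with a median of 0.12 beside -0.01 over all tested genes. The intervals of the 7 tested members other than Arid1b all included 0, and the largest of their upper bounds was 0.58, for Arid1a. With 3 libraries a group, differences inside such intervals cannot be told from none. The members lie on 7 chromosomes, whose tested genes had median log2 fold changes from -0.06 to 0.02.

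**Figure D2:**
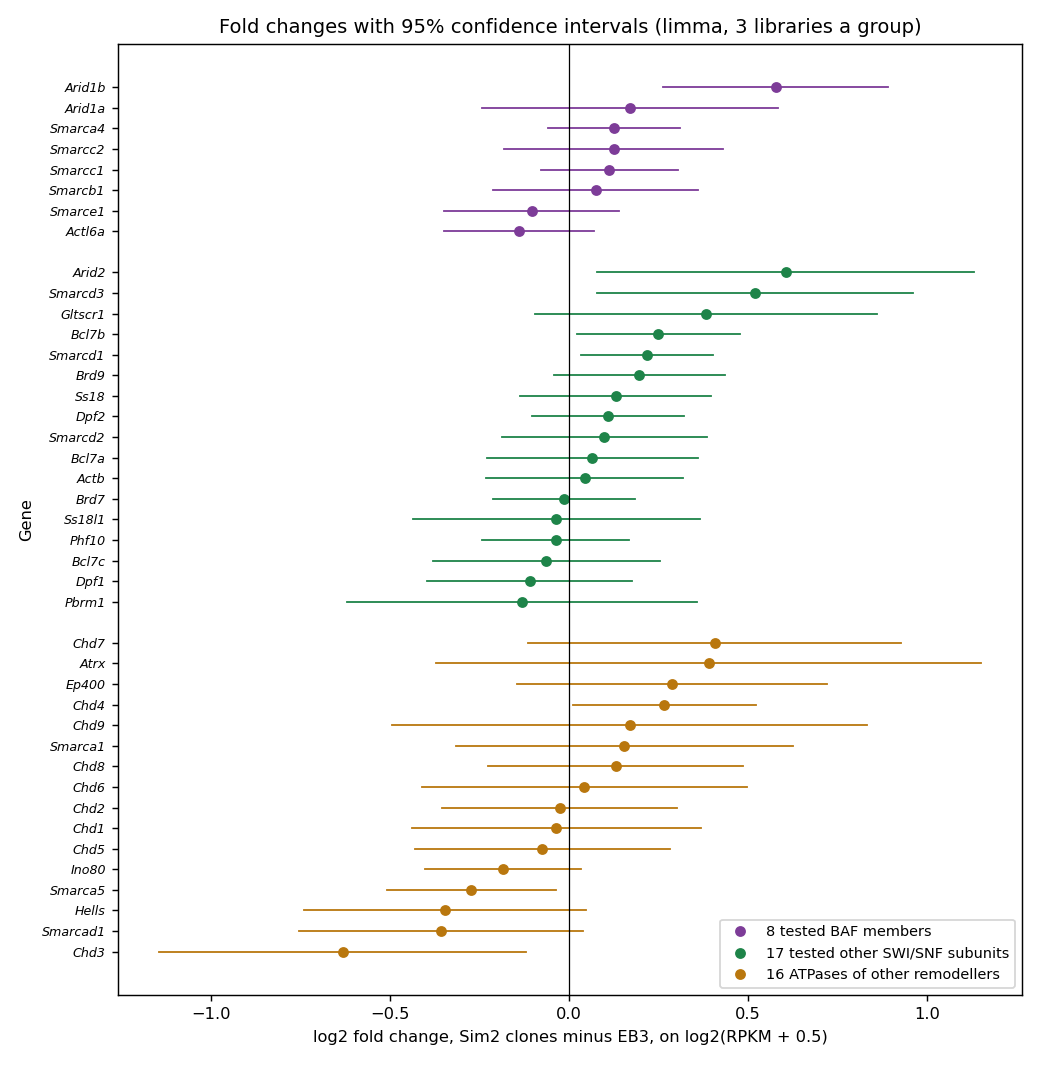
Log2 fold changes, Sim2 clones minus EB3, of the 8 tested members, 17 other SWI/SNF subunits and 16 ATPases of other remodellers, with 95% confidence intervals from limma. Arid1b, at 0.58, has the largest value of the members, and 0 of the genes shown passed the adjusted threshold.

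The members differ greatly in length, and length mattered in these libraries. In EB3-0, compared with the mean of EB3-1 and EB3-2, the median difference of tested genes fell from 0.35 on the log2 scale for cDNAs under 1000 bases to -0.62 for the 338 genes of 8000 bases or more. Arid1a, with a cDNA of 8175 bases, followed this trend with -0.68, and Smarcb1, with 1657 bases, had 0.40, just above the quartiles of its class. Smarce1, Smarca2 and Smarcc1 also lay within the quartiles of their class, whereas Smarca4 (-0.06), Smarcc2 (0.0028) and Actl6a (-0.0088) were near 0 and outside them. Arid1b has the longest cDNA of the members, 11325 bases, of which 6735 are coding and 40.3% lie in the 3′ untranslated region. Its EB3-0 value differed by -0.16 from the other EB3 cultures, also outside the quartiles of its class. Among genes of 8000 bases or more, the median log2 fold change between clones and EB3 was 0.15, and with EB3-0 left out it was -0.06. For Arid1b the same values were 0.58 and 0.52 (adjusted p = 0.0631 without EB3-0, limma). With the trend of each library on cDNA length removed, the log2 fold change of Arid1b was 0.37 (adjusted p = 0.189), and with the trends on length and GC content removed it was 0.28 (adjusted p = 0.271). The sign stayed positive in all 15 alternatives, with adjusted p-values from 0.0631 to 0.316. With length and GC removed, Arid1a, Smarca4 and Smarcc2 turned negative, at -0.12, -0.11 and -0.04.

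**Figure D3:**
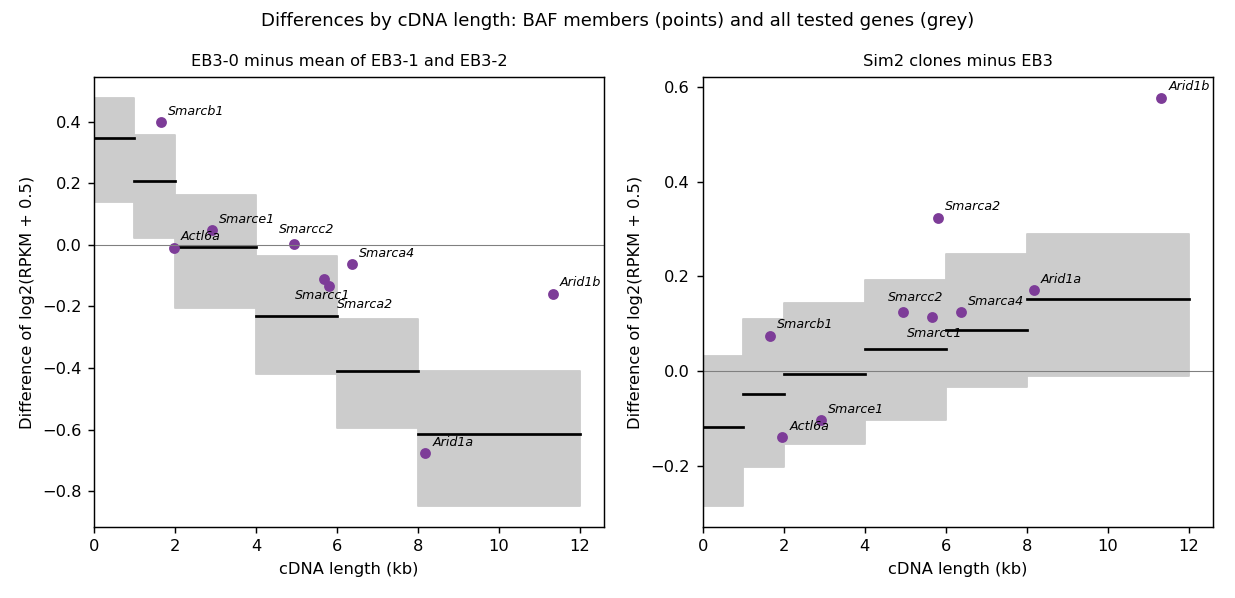
Differences on the log2(RPKM + 0.5) scale against cDNA length in kb, on the left for EB3-0 against the other EB3 cultures and on the right for the Sim2 clones against EB3. Black lines and grey boxes are the median and the middle quartiles of all tested genes in each length class, and purple points are the 9 members. Arid1a sits in the grey box of its class in both panels, while Arid1b sits above it in both.

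Ratios within a library do not depend on its total, and they describe the make-up of the transcripts. Arid1b made up 7.59%, 8.57% and 6.72% of the summed RPKM of Arid1a and Arid1b in clones A6, B8 and C4. In EB3 its share was 7.004% in EB3-0, 4.99% in EB3-1 and 5.10% in EB3-2. The high value of EB3-0 came with its low Arid1a, and the groups overlapped. The log2 ratio of Arid1b to Arid1a differed by 0.41 between clones and EB3 (2-sided exact permutation test, p = 0.2). Smarca2 made up 0.974%, 1.16% and 0.754% of its pair with Smarca4 in A6, B8 and C4, and 0.554%, 0.789% and 0.573% in EB3-0, EB3-1 and EB3-2, with a log2 ratio that differed by 0.20 (exact permutation test, p = 0.2). At these low levels of Smarca2 the size rests on the pseudocount: the difference was 0.59 with none and 0.086 with a pseudocount of 1. Smarcc2 made up 6.91% to 9.08% of its pair with Smarcc1 in the clones and 7.24% to 8.09% in EB3, and its log2 ratio differed by 0.01 (exact permutation test, p = 1).

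The log2 ratio of Arid1b to the mean of the other 8 members took the values -1.999, -1.82 and -1.97 in A6, B8 and C4. In EB3-0, EB3-1 and EB3-2 the values were -2.48, -2.42 and -2.36. The groups did not overlap, and EB3-0 did not stand apart here. The means were -1.93 ± 0.10 and -2.42 ± 0.06 (SD, n = 3 each), a difference of 0.49 with an exact permutation p = 0.1, the smallest possible. Adjusted over the 4 ratios by the Benjamini-Hochberg method this became 0.267, as it did for the ratios of Arid1b to Arid1a and Smarca2 to Smarca4. With the length trend removed the difference was 0.34, and it remained positive in each of the 10 alternatives.

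**Figure D4:**
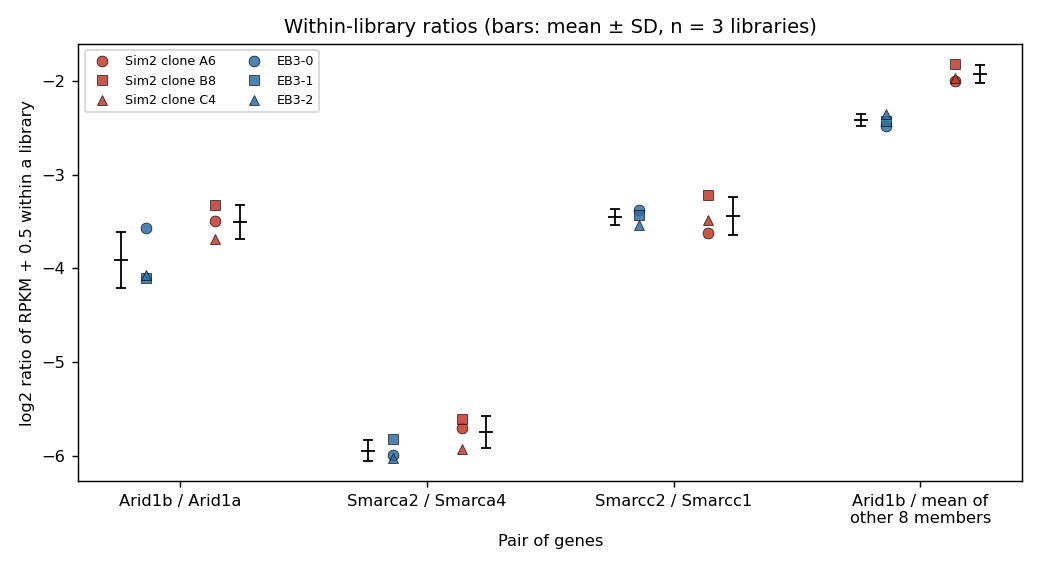
Log2 ratios within each library for the 3 paralogous pairs and for Arid1b against the mean of the other 8 members, blue for EB3 and red for the Sim2 clones, with the mean ± SD (n = 3) beside the points. The groups are apart only for the last ratio, at -1.93 in the clones and -2.42 in EB3, with the largest spread within EB3 for Arid1b to Arid1a.

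The other subunits of the SWI/SNF complexes were listed as 24 genes, of which 21 were in the table and 17 tested. 0 were called, against 0.699% of all tested genes. 4 had an unadjusted p under 0.05 (limma), against 17.8% of all tested genes, and all 4 were higher in the clones. 11 were higher and 6 lower, with a median of 0.10. The range was from -0.13 for Pbrm1, a subunit of the PBAF form, to 0.61 for Arid2, its ARID subunit. Without EB3-0 Pbrm1 was at -0.40 (adjusted p = 0.0732, limma). Smarcd1 encodes a subunit of the core and was at 146 to 158 RPKM in the clones and 128 to 134 in EB3, a log2 fold change of 0.22 ± 0.08 (SE; adjusted p = 0.211, limma). Arid2 was at 22.6 to 27.5 RPKM in the clones and at 10.9, 20.9 and 19.9 RPKM in EB3-0, EB3-1 and EB3-2, which gave 0.61 ± 0.23 (SE; adjusted p = 0.223, limma). Its cDNA has 9029 bases, EB3-0 was low by -0.88, and without EB3-0 the value was 0.31. Both Smarcd1 and Arid2 lie on chromosome 15, where the 470 tested genes had a median of 0.21 in this comparison.

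Bcl7b, a small accessory subunit, had a log2 fold change of 0.25 ± 0.10 (SE; adjusted p = 0.243, limma). Smarcd3 and Brd9 were named after their values were seen: Smarcd3, a paralog of Smarcd1, was at 9.27 to 15.2 RPKM in the clones and 6.79 to 8.98 in EB3 (0.52 ± 0.19, adjusted p = 0.214, limma), and Brd9, a bromodomain subunit of the noncanonical form, at 12.5 to 14.1 and 11.1 to 12.1 RPKM (0.20 ± 0.10, adjusted p = 0.374, limma). Of the 17 tested subunits, these 5 (Smarcd1, Arid2, Bcl7b, Smarcd3 and Brd9) had all clones above all EB3 cultures, against 12.7% of tested genes, and 0 had all clones below, against 13.4%. The log2 fold changes of the remaining abundant subunits were 0.13 for Ss18, the gene fused in synovial sarcoma, and 0.11 for the PHD-finger subunit gene Dpf2. For the rest they were 0.10 for Smarcd2 (0.22 without EB3-0), 0.04 for the actin gene Actb, -0.01 for Brd7, -0.04 for Phf10 and -0.13 for Pbrm1 (-0.40 without EB3-0). The 4 genes in the table that were too low to test were Dpf3, Bcl11a, Bcl11b and Actl6b, of which Bcl11b had all clones below EB3, at 0.0392 to 0.101 against 0.139 to 0.208 RPKM. Actl6b, the neuronal counterpart of Actl6a, had 1 read, in EB3-0, and 0 in the other 5 libraries.

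Of 17 listed ATPases of other remodellers, 16 were in the table and all of these were tested, with 0 called, 8 higher and 8 lower, and a median of 0.01. This even split rested on EB3-0: without it 3 were higher and 13 lower, with a median of -0.19. At an unadjusted p under 0.05 (limma), 1 was higher and 2 lower. The shares over all tested genes were 0.699% called and 17.8% at an unadjusted p under 0.05, in either direction. All clones were above all EB3 cultures for 1 of the 16, against 12.7% of tested genes, and below them for 3, against 13.4%. Chd4, the ATPase of the NuRD complex, was at 127 to 138 RPKM in the clones and at 94.2, 119 and 119 RPKM in EB3-0, EB3-1 and EB3-2 (0.27 ± 0.11, adjusted p = 0.265, limma), and its log2 fold change was 0.15 without EB3-0 and 0.08 with length and GC trends removed. Hells, a SNF2-family helicase that takes part in DNA methylation, was at 70.4 to 81.0 RPKM in the clones and at 71.7, 115 and 108 RPKM in EB3-0, EB3-1 and EB3-2, which gave -0.35 ± 0.17 (SE; adjusted p = 0.340, limma). Without EB3-0 it was -0.56 with an adjusted p of 0.0223, and Smarca5, the ISWI ATPase, named after its values were seen, was -0.36 with an adjusted p of 0.0413 (limma), so 2 of the 16 were called there, against 5.99% of all tested genes in that fit. With length and GC trends removed, Hells was at -0.06 (adjusted p = 0.744) and Smarca5 at -0.16 (adjusted p = 0.290, limma). Smarcad1 had -0.36 ± 0.17 (SE), or -0.55 without EB3-0, and Chd8 0.13 ± 0.15, or -0.06 without EB3-0. The lowest value was that of Chd3, also named after its values were seen, at 0.692 to 1.61 RPKM in the clones and 1.87 to 1.96 in EB3 (-0.63 ± 0.22, adjusted p = 0.199, limma).

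The tested genes whose log2(RPKM + 0.5) was most like that of Arid1b over the 6 libraries were 1300010F03Rik (Pearson's r = 0.998), Abl1 (0.996), Upf1 (0.995), Slc30a7 (0.995) and Jup (0.994). Their cDNAs have 4616 to 9020 bases and they lie on 5 chromosomes other than 17. A correlation over 6 points that share their libraries is a description only, and 198 tested genes (1.71%) reached an r of at least 0.95 with Arid1b. Among the tested members the r with Arid1b was 0.92 for Smarca4, 0.74 for Smarcc2, 0.65 for Smarcc1 and 0.48 for Arid1a. It was -0.01 for Smarcb1, -0.25 for Smarce1 and -0.50 for Actl6a.

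Within 2 Mb of Arid1b on chromosome 17, 16 other genes were tested. 9 of them, all at larger coordinates than Arid1b, were higher in the clones and the median was 0.08, with a range from -0.49 to 1.01, while the 590 tested genes of the chromosome had a median of 0.00. The gene with the largest value, Synj2, which encodes a phosphoinositide phosphatase, had a log2 fold change of 1.01 ± 0.17 (SE; adjusted p = 0.0434, limma) and was the 1 gene called in the window. It was named after its value was seen. Its adjusted p rose above 0.05 in 8 of 14 alternatives, among them those without A6 (0.143), B8 (0.120), C4 (0.0874), EB3-1 (0.210) or EB3-2 (0.180).

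**Figure D5:**
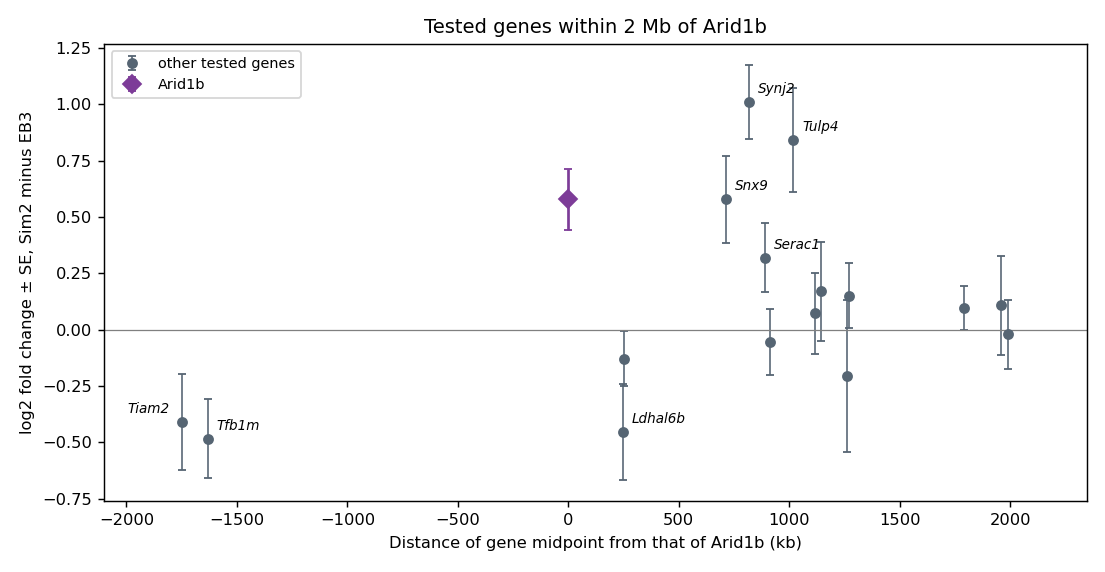
Log2 fold change ± SE of the 16 other tested genes within 2 Mb of Arid1b against the distance between gene midpoints in kb, with Arid1b as the purple diamond at 0. Genes with a value of at least 0.25 in either direction are named. The 2 genes left of Arid1b are at -0.49 and -0.41, and the 14 to its right range from -0.46 to 1.01, with Synj2 highest.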

How the data were processed

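RNA of 6 cultures was sequenced by the authors, mapped to build mm9 (BWA, default settings, paired reads), and counted over the exons of RefSeq genes by a custom pipeline. The authors deposited RPKM values for each library, with cDNA lengths, with 0 sample columns left out here. Versions, use of strand and the treatment of reads with several positions were not given in the sources used here. The study's own test was edgeR on counts, while RPKM values are not counts. Groups came from the sample labels, and no batch was labelled.

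Values times cDNA length were whole multiples of 1 step per library for 100% of values (tolerance 0.1), which gave the reads. A test on these recovered reads was not run, so the calls are those of limma on transformed RPKM values. Values were transformed to log2(RPKM + 0.5), and the 11595 genes (51.3%) with a mean of at least 1 RPKM were tested with limma 3.58.1 in R 4.3.3 (lmFit, eBayes with intensity trend, no covariate, Benjamini-Hochberg, called at an adjusted p under 0.05). Single values had a 2-sided exact permutation test (scipy 1.17.1). P-values, SE and confidence intervals set the group difference against the spread between clones in the Sim2 group and between cultures of the parental line in EB3. These unlike units were treated as equivalent replicates, and variation between clones without the transgene was not measured. Trends on length and GC content (value for 96.1% of tested genes, the median for the rest) were removed with splines of 5 degrees of freedom. Positions are 1-based. Table and annotation positions were compared, and the lower coordinate of 8 of 9 members agreed within 15 bases. For members on the minus strand this coordinate is the end of the gene, so their start was not compared. Copies were sought with minimap2 2.31.

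The members, gene lists and tests were chosen with earlier results of these data known. Named were the 9 members, Sim2, the 10 most abundant tested other subunits, the 4 most abundant other ATPases, the 5 genes most like Arid1b, and every called gene of those lists. 5 more were named after their values were seen. Of the lists, 3 other subunits, 1 ATPase and 1 neural marker had no row under the symbol used.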

Additional observations from a re-analysis of the deposited data

How the results depend on the processing

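0 of the tested members and 0 of the other SWI/SNF subunits were called under each of the 15 alternatives, and the log2 fold change of Arid1b kept its sign (0.28 to 0.63). The count of called genes, 81, was 28 with no filter on low values, 30 without the intensity trend, 289 with the length trend removed, 194 with length and GC removed and 6 with EB3-1 and EB3-2 averaged. Leaving out 1 library gave 6 (without EB3-1 or without EB3-2) to 694 (without EB3-0), with 20 without A6, 17 without B8 and 7 without C4. Median centring gave 66, of which 26 were higher, against 40 of 81. Leaving out 1 library gave 0 to 2 called ATPases, 2 without EB3-0.

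Values of the genes named in the text that changed sign, all uncalled, were these. With length and GC removed Arid1a was -0.12, Smarca4 -0.11, Smarcc2 -0.044, Smarcd2 -0.0034, Phf10 0.18, Brd7 0.060 and Chd8 -0.035. With length alone removed Phf10 was 0.0053, Brd7 0.0036 and Chd8 -0.012. With EB3-1 and EB3-2 averaged Pbrm1 was 0.0024 and the Smarcc2 to Smarcc1 difference -0.0082. With 1 library left out in turn, the range was -0.055 (without EB3-0) to 0.28 for Arid1a, -0.093 to 0.021 for Phf10 and -0.032 to 0.0096 for Brd7. It was -0.40 (without EB3-0) to 0.015 for Pbrm1, -0.058 (without EB3-0) to 0.23 for Chd8 and -0.10 (without B8) to 0.10 for the Smarcc2 to Smarcc1 difference. The cause was not tested. Of all 41 tested genes in the lists, 8 changed sign without EB3-0: Arid1a, Bcl7a, Bcl7c, Smarca1, Chd6, Chd8, Chd9 and Atrx. Of 418 values of single genes under alternatives, 391 kept their sign and their side of the threshold. No paired analysis was possible because the replicate names of the groups (A6, B8, C4 and 0, 1, 2) are not shared.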
